A study of Rattus norvegicus with 9 samples.

Results

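The genes described here encode the nuclear end of the Wnt pathway: the TCF/LEF DNA-binding factors Tcf7l2, Tcf7l1, Tcf7 and Lef1, their coactivator beta-catenin (Ctnnb1), and the Groucho corepressors Tle1, Tle2, Tle3 and Tle4. They were chosen by symbol, and 8 of the 9 had a row in the deposited tables, among 14607 genes listed in at least 1 library. Tcf7 was not listed in any library, so no value is given for it. All 8 listed genes passed the filter on low counts. The study is RNA-seq of primary neonatal rat cardiomyocytes, isolated from hearts of SD rats aged 1 to 2 days. Cells received lentivirus for 16 h and were then cultured for 48 h. The groups, of 3 libraries each, were lenti-NC (the lentiviral vector control in cells of genotype WT), lenti-TCF7L2 (titled lenti-TCF7L2 WT, TCF7L2 overexpression) and lenti-shTCF7L2 (titled lenti-TCF7L2 shRNA, TCF7L2 knockdown); every group, the control included, carried a lentivirus. The species and isoform of the TCF7L2 insert, the promoters, the shRNA sequence and whether animals were pooled are not given in the sources used here. The labels do not say that the 3 libraries of a group were separate cultures, so p-values measure the spread between these libraries, which may be technical.

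TCF/LEF factors bind DNA through an HMG box and by themselves activate little. When Wnt signalling stabilises beta-catenin, it enters the nucleus, binds TCF/LEF factors and brings coactivators to their target genes. Without it, Groucho proteins occupy the factors and recruit histone deacetylases, so the same sites are repressed. In the heart the pathway is known for its roles in cardiac development and in hypertrophic and injury responses.

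Total expected counts ranged from 15085922 to 16478295 per library. The lowest correlation of log2 CPM (counts scaled to library size) between libraries of a group was 0.994 in lenti-NC and lenti-shTCF7L2 and 0.948 in lenti-TCF7L2. The third lenti-TCF7L2 library stood apart by gene length: against the lenti-NC mean, its median log2 difference was 0.39 for genes up to 1500 bases and −0.71 for genes over 5000 bases, while the other 8 libraries lay between −0.22 and 0.12 in every length class. All 10 cardiomyocyte markers were listed, and their summed level was 53400 to 54400 CPM in lenti-NC, beside 33900 to 35100 CPM for 9 fibroblast markers, so the cultures also held RNA of fibroblast marker genes. Marker calls use the test and adjusted p threshold given below for the members. In lenti-TCF7L2 against lenti-NC that test called 18.0% of all tested genes higher and 13.8% lower. The cardiomyocyte sum was 24600 to 31000 CPM in lenti-TCF7L2, with 8 of 10 markers lower and 1 higher. Of 10 endothelial markers 8 were higher and 0 lower, with a median log2 difference of 1.74 (summed level 866 to 1060 CPM against 631 to 657 CPM). Fibroblast markers summed to 37900 to 45500 CPM in lenti-TCF7L2, above the lenti-NC range, with 4 of 9 called higher and 2 lower. Macrophage markers summed to 73.8 to 79.2 CPM in lenti-TCF7L2 and 40.3 to 41.3 CPM in lenti-NC, where 3 of the 10 were at 0 in at least 1 library. Of the 7 tested, 4 were called higher and 0 lower. Smooth muscle and pericyte markers summed to 7210 to 8360 CPM in lenti-TCF7L2 and 7540 to 7680 CPM in lenti-NC, with 2 of 10 called higher and 0 lower. In bulk RNA, fewer cells of a type and less RNA per cell cannot be told apart.

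The sequences upstream of these genes were searched for the core of the TCF/LEF site. The core, CTTTG on either strand (CAAAG when read in reverse), lay within the 250 bases before the start site in 6 of the 9 genes, and in 48.2% of 33469 RefSeq promoter windows of that length. The longer forms CTTTGA and CTTTGT, each of which contains the core, were found in 1 gene each, Tle4 and Tcf7l1, against 13.9% and 16.3% of all windows. The windows of 4 genes on which the results below turn, or which serve as their contrast, are printed 5′ to 3′ on the gene's strand (RefSeq, GRCr8), with the core or the longer form in capitals. Lef1 (chr2:222340463-222340712, plus strand) holds 2 cores, Tle3 (chr8:70753527-70753776, plus strand) holds 1, Tle2 (chr7:8785066-8785315, minus strand) holds none, and Tle4 (chr1:221222827-221223076, minus strand) holds TCAAAG, the reverse of CTTTGA.
Lef1: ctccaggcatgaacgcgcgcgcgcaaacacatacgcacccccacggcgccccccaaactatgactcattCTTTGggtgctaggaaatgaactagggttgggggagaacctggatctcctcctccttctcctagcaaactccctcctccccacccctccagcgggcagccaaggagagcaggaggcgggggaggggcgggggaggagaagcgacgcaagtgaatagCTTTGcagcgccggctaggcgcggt
Tle3: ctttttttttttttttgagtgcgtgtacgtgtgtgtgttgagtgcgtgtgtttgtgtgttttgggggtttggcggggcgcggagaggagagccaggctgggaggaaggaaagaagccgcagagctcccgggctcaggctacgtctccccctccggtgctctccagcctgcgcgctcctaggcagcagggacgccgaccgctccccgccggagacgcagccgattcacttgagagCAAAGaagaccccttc
Tle2: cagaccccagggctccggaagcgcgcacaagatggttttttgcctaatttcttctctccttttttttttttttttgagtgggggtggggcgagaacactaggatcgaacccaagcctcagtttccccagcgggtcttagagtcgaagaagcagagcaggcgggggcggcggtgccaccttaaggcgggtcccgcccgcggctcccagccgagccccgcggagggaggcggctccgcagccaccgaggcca
Tle4: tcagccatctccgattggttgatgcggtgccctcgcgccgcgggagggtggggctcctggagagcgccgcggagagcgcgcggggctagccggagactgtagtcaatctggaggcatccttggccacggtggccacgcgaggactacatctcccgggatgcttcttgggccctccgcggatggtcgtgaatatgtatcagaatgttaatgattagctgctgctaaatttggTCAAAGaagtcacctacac
The core of Tle3 starts 16 bases before the start site and the nearer core of Lef1 25 bases before it. These matches are letters in a window; binding was not measured here.

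In control cells beta-catenin was by far the most abundant of these transcripts on the per-length FPKM scale (fragments scaled to gene length and library size), at 145 ± 1.24 (SD, n = 3). Among the DNA-binding factors Tcf7l1, often described as the most repressive of them, came first at 26.5 ± 1.69 FPKM. Tcf7l2 followed at 8.91 ± 0.732 FPKM and Lef1, the factor best known from lymphocytes and hair follicles, came last at 1.28 ± 0.194 FPKM. Tle3 led the corepressors at 10.9 ± 0.356 FPKM, ahead of Tle2 (6.41 ± 0.753), Tle4 (4.55 ± 0.372) and Tle1 (2.06 ± 0.233). In lenti-NC no 2 neighbours in this order of 8 genes overlapped between libraries. In lenti-TCF7L2, Tcf7l2 (36.2 ± 15.1 FPKM) came second and overlapped Tcf7l1 (24.6 ± 1.90), and in lenti-shTCF7L2, Tle2 (7.70 ± 0.599) overlapped Tcf7l2 (6.74 ± 0.682). Lef1 stayed last in every group, at 1.60 ± 0.227 FPKM in lenti-TCF7L2 and 0.577 ± 0.0666 in lenti-shTCF7L2.

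**Figure D1:**
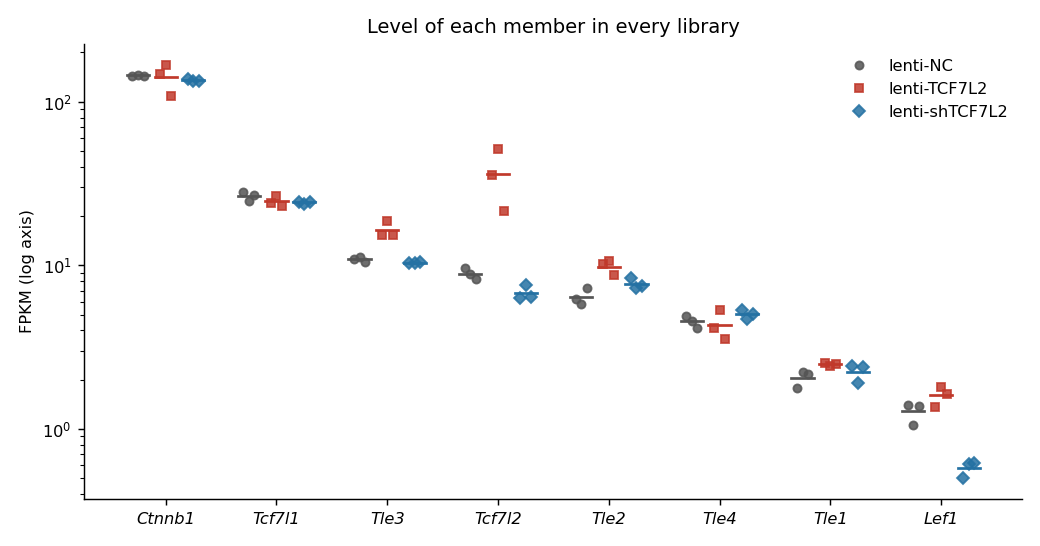
FPKM of each of the 8 listed genes in every library (log axis), with points for the 3 libraries of lenti-NC, lenti-TCF7L2 and lenti-shTCF7L2 and bars at the group means. Ctnnb1 sits highest in all groups, Tcf7l2 is spread most widely in lenti-TCF7L2 (21.4 to 51.6 FPKM), and the 3 lenti-shTCF7L2 points of Lef1 lie below all its other points.

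The first comparison, lenti-TCF7L2 against lenti-NC, asks which of these genes differ when TCF7L2 is overexpressed. Tcf7l2 itself, Tle2 and Tle3 rose, and no member fell. By edgeR's quasi-likelihood test with Benjamini-Hochberg adjustment over 11761 genes, 3 of 8 members were higher and 0 lower at an adjusted p under 0.05, in a comparison where 31.8% of all tested genes passed (18.0% higher, 13.8% lower). The count was also 3 at an unadjusted p under 0.05, which 44.1% of all genes had, and by DESeq2, which called 32.6%. The members' median log2 difference was 0.25 and that of all tested genes 0.03. In CPM, groups did not overlap for 4 members, all higher in lenti-TCF7L2, against 24.9% of all genes not overlapping in that direction. Tcf7l2, the gene delivered by the virus, is among the 3 called and the 4 not overlapping, and it enters the median. Its rise follows from the design, so these counts are no result about the members as a set.

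Tcf7l2, the gene delivered by the virus, had expected counts of 595, 540 and 510 in lenti-NC and 2251, 3240 and 1434 in lenti-TCF7L2. The groups did not overlap, and the 3 lenti-TCF7L2 libraries were unequal, with the second highest and the third lowest. The difference was 3.92-fold (95% CI 2.58 to 5.96; log2 1.97, SE 0.27, adjusted p = 0.000846). These reads include any from the insert that match the rat gene model, so the value is a check of the labels and not a level of the cells' own Tcf7l2 gene.

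The other DNA-binding factors did not pass the test. Tcf7l1 had 1165, 1028 and 1133 counts in lenti-NC and 1037, 1133 and 1042 in lenti-TCF7L2, overlapping ranges (log2 −0.16, SE 0.08, adjusted p = 0.147). Without the second lenti-TCF7L2 library, Tcf7l1 was called lower (log2 −0.23, adjusted p = 0.0361). Lef1 had 25, 19 and 25 counts in lenti-NC and 25, 33 and 32 in lenti-TCF7L2 (log2 0.27, 95% CI −0.18 to 0.72, adjusted p = 0.359).

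Ctnnb1 had 5149, 5230 and 5196 counts in lenti-NC, a narrow range, and 5428, 6145 and 4227 in lenti-TCF7L2, on both sides of it. The fitted difference was −0.09 (95% CI −0.39 to 0.22, adjusted p = 0.638), and it was 0.05 without the third lenti-TCF7L2 library, the lowest of all 9. Axin2, the scaffold and feedback gene widely used as a readout of the pathway, was counted 18, 33 and 25 times in lenti-NC and 32, 33 and 26 times in lenti-TCF7L2. These ranges overlapped, and the log2 difference was 0.15 (SE 0.24, adjusted p = 0.655).

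Among the corepressors, Tle3 had 797, 821 and 775 counts in lenti-NC and 1160, 1400 and 1225 in lenti-TCF7L2. Every lenti-TCF7L2 library was above every control library, and Tle3 was 1.46-fold higher (log2 0.55, SE 0.09, adjusted p = 0.00203). Tle2 had 229, 214 and 270 counts in lenti-NC and 391, 399 and 350 in lenti-TCF7L2, also without overlap, a 1.48-fold difference (log2 0.57, SE 0.12, adjusted p = 0.00788). Both calls were made under all 22 alternative settings, with log2 values of 0.44 to 0.78 for Tle3 and 0.50 to 0.66 for Tle2. The rises lay in the same libraries as the lower cardiomyocyte and higher endothelial, fibroblast and macrophage marker sums given above, and the part of cell makeup in them was not tested.

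The other corepressors went different ways without passing the test. Tle1, the least abundant, had 79, 98 and 96 counts in lenti-NC and 115, 109 and 121 in lenti-TCF7L2, which did not overlap (log2 0.22, SE 0.14, adjusted p = 0.243). Tle4 had 301, 283 and 258 counts in lenti-NC and 263, 335 and 239 in lenti-TCF7L2, overlapping ranges (log2 −0.12, SE 0.15, adjusted p = 0.557). The sign for Tle4 turned to 0.03 when the fit adjusted for gene length.

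**Figure D2:**
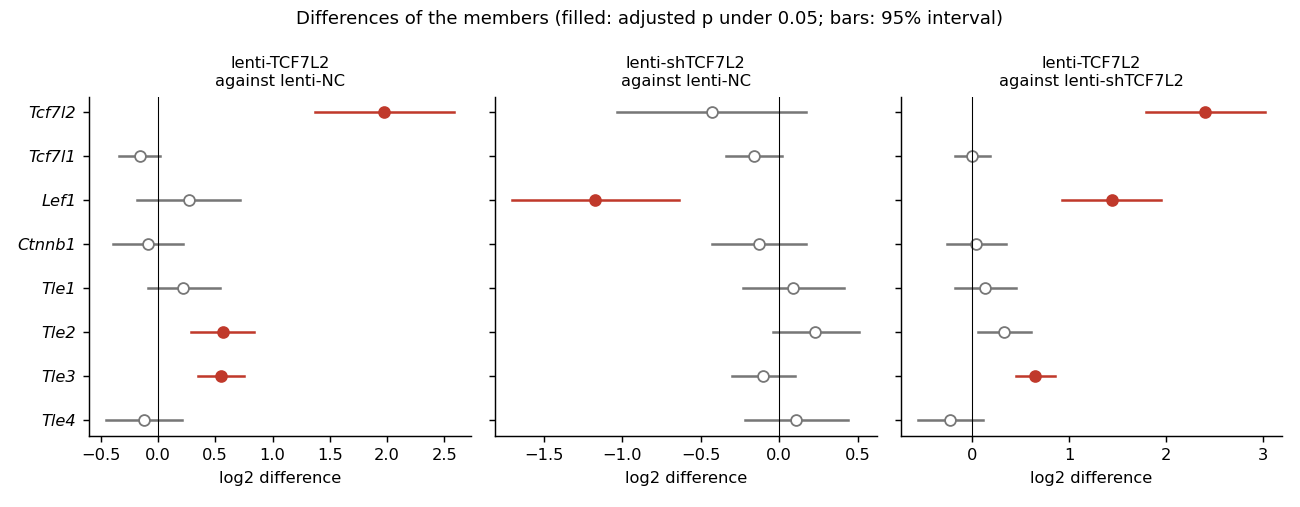
Fitted log2 differences of the 8 members in the 3 comparisons, with bars for the 95% confidence intervals a vertical line at 0 and filled points for an adjusted p under 0.05. Tcf7l2, Tle2 and Tle3 lie above 0 in lenti-TCF7L2 against lenti-NC, and Lef1 lies below 0 in lenti-shTCF7L2 against lenti-NC.

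The second comparison, lenti-shTCF7L2 against lenti-NC, asks the same of the knockdown. Lef1 fell, and the targeted gene did not pass the test. Of the 8 members, 0 were higher and 1 was lower by edgeR's quasi-likelihood test, against 3.64% of all tested genes called (1.32% higher, 2.32% lower). The count was 1 at an unadjusted p under 0.05, which 16.0% of all genes had, and 0 by DESeq2, which called 5.54%. The members' median was −0.12 against 0.01 for all tested genes. In CPM, groups did not overlap for 5 members, Tcf7l2, Tcf7l1, Lef1, Ctnnb1 and Tle3, all lower with the shRNA, against 21.0% of all genes in that direction. Tcf7l2, the target of the shRNA, is among these 5 and enters the median. Its direction follows from the design, so these counts are no result about the members as a set.

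Tcf7l2 had 388, 465 and 391 counts in lenti-shTCF7L2 against 595, 540 and 510 in lenti-NC. Each shRNA library was below each control library, and the fitted difference was −25.9% (log2 −0.43, 95% CI −1.03 to 0.17, adjusted p = 0.511). The fit over all 9 libraries shares 1 estimate of spread with the unequal lenti-TCF7L2 libraries. In the fit over only the 6 libraries compared, where 28.5% of all genes were called (15.5% lower), the same difference had an adjusted p of 0.000182, and without the third lenti-TCF7L2 library, where 17.4% of all genes were called, it had an adjusted p of 0.0285.

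Lef1 had 25, 19 and 25 counts in lenti-NC and 9, 11 and 11 in lenti-shTCF7L2. The groups did not overlap, and Lef1 fell by 55.7% (log2 −1.17, SE 0.23, 95% CI −1.70 to −0.64, adjusted p = 0.028). The direction held in all 22 alternative settings, but the call was lost in 8 of them. Leaving out the first, second or the third lenti-NC library gave adjusted p-values of 0.106, 0.0635 and 0.12, and leaving out the first, second or the third lenti-shTCF7L2 library gave 0.124, 0.112 and 0.0983. DESeq2 gave 0.0519, a fit with the replicate number as a block gave 0.0814, and the range over all alternatives was 0.00536 to 0.124. In the same libraries endothelial markers summed to 551 to 567 CPM, below the lenti-NC range, and cardiomyocyte markers to 50200 to 50700 CPM, also below it. Fibroblast markers summed to 38000 to 39700 CPM, above the lenti-NC range although 3 of 9 were called lower and 0 higher. Macrophage markers summed to 44.1 to 47.8 CPM, with 2 of 7 tested called higher and 0 lower. Of all tested genes, 3.64% were called in this comparison. The part of cell makeup in the Lef1 difference was not tested.

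Tcf7l1 had 1014, 996 and 1018 counts with the shRNA, just below the lowest control library at 1028 (log2 −0.16, adjusted p = 0.366). Ctnnb1 had 4923, 4819 and 4775 counts, all below the controls (log2 −0.13, adjusted p = 0.755). Both were called lower in the 6-library fit, at adjusted p-values of 0.0233 and 0.0158, which with Lef1 and Tcf7l2 made 4 of 8 members. That fit called 28.5% of all genes (15.5% lower), and the 4 include the shRNA target. Axin2 was counted 25, 25 and 24 times (log2 −0.07, SE 0.24, adjusted p = 0.955).

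None of the corepressors passed the test with the shRNA. Tle3 had 751, 754 and 769 counts (log2 −0.10, adjusted p = 0.69) and Tle2 had 310, 269 and 276, the lowest of which was 1 count below the highest control (log2 0.23, 95% CI −0.04 to 0.51, adjusted p = 0.411). Tle1 had 107, 84 and 105 counts (log2 0.09, adjusted p = 0.872) and Tle4 had 326, 292 and 307 (log2 0.11, adjusted p = 0.843). DESeq2 and the 6-library fit also called 0 of the 4.

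The last comparison sets lenti-TCF7L2 directly against lenti-shTCF7L2. It shares its libraries with the first and second comparisons, so its values are not separate evidence. Of the 8 members 3 were higher and 0 lower, Tcf7l2, Lef1 and Tle3, where 33.1% of all genes were called (18.4% higher, 14.7% lower), and the medians were 0.23 for the members and 0.00 for all genes. Tcf7l2 was 5.29-fold higher (log2 2.40, SE 0.27, adjusted p = 0.000254). Lef1 was 2.72-fold higher (log2 1.44, SE 0.23, adjusted p = 0.00143), and Tle3 1.57-fold higher (log2 0.65, SE 0.09, adjusted p = 0.000687). Both were called under all 22 alternatives. In CPM, groups did not overlap for 4 members, these 3 and Tle2, all higher in lenti-TCF7L2, against 24.1% of all genes in that direction. Tcf7l2, delivered by 1 vector and targeted by the other, is in these counts and in the median.

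The remaining members did not pass in that comparison. Tle2, with groups that did not overlap, had a log2 difference of 0.33 (SE 0.12, adjusted p = 0.0635). Without the third lenti-TCF7L2 library, where 45.6% of all genes were called, Tle2 was called at 0.41 (adjusted p = 0.00534) and Ctnnb1 at 0.20 (adjusted p = 0.0166; 0.04 and 0.825 with all libraries). Tle4 was at −0.23 (adjusted p = 0.265), and was called without the second lenti-TCF7L2 library (−0.40, adjusted p = 0.0219). Tcf7l1 was at 0.00 (adjusted p = 0.992), Tle1 at 0.13 (adjusted p = 0.483) and Axin2 at 0.21 (adjusted p = 0.519).

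The makeup of the 2 families was then described as shares of FPKM, without a test. In lenti-NC, Tcf7l1 gave 72.3% ± 1.25 (SD, n = 3) of the summed FPKM of the 3 listed TCF/LEF factors, Tcf7l2 gave 24.3% ± 1.55 and Lef1 gave 3.48% ± 0.373. In lenti-TCF7L2 the Tcf7l2 share was 56.4% ± 9.1 and that of Tcf7l1 40.9% ± 8.39. The order of these factors was thus turned in the group mean, although their FPKM ranges overlapped. Tcf7l2 FPKM there includes any insert reads, so the turn follows from the design and is no measure of the cells' own factors. The FPKM ranges of Tcf7l1 itself overlapped between lenti-NC and lenti-TCF7L2. The part of gene length in the shares of the third lenti-TCF7L2 library was not tested. With the shRNA the shares were 76.8% ± 1.99 for Tcf7l1, 21.4% ± 1.91 for Tcf7l2 and 1.83% ± 0.194 for Lef1. The corepressors kept Tle3 first in every group, with 45.5% ± 1.74 of their summed FPKM in lenti-NC, 49.7% ± 1.84 in lenti-TCF7L2 and 41.0% ± 1.86 in lenti-shTCF7L2. Tle4 gave 19.1% ± 1.67, 13.0% ± 1.28 and 19.8% ± 0.264 in that order of groups.

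**Figure D3:**
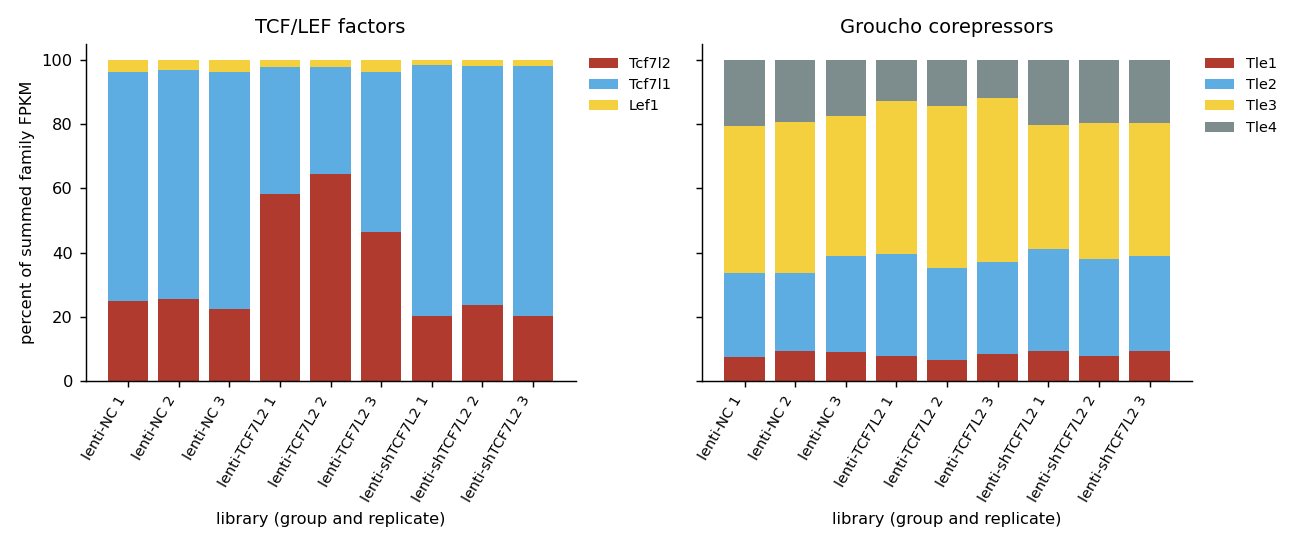
Share of each family's summed FPKM (percent) held by each member in each of the 9 libraries, as stacked bars. Tcf7l1 holds most of the TCF/LEF sum in lenti-NC (mean 72.3%) and lenti-shTCF7L2 (mean 76.8%). Tcf7l2, with any insert reads included, holds 46.5% to 64.5% in the lenti-TCF7L2 libraries.

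The proteins that work with these factors were followed through 5 lists. Their counts in lenti-TCF7L2 against lenti-NC stand beside 31.8% of all tested genes called (18.0% higher, 13.8% lower), 32.6% by DESeq2, 19.9% with only the 6 libraries compared and 42.7% without the third lenti-TCF7L2 library; with lists this short, none is called particular from its count. With any 1 library left out, 2430 to 5503 of all genes were called in that comparison, against 3741 with every library. List counts from such fits move with that total and are not read apart from it. The list names are labels and do not give the direction in which each gene acts, Ruvbl2 here and Tnik among the inhibitors included. In lenti-TCF7L2 against lenti-NC, 4 of 12 tested genes listed as nuclear beta-catenin coactivators were higher and 1 was lower. The counts were the same by edgeR and by DESeq2, and the median was 0.08. The counts were 3 and 0 with only the 6 libraries compared or without any 1 lenti-NC library, and 4 and 4 without the second lenti-TCF7L2 library. Carm1, an arginine methyltransferase, rose from a mean of 142 to 187 CPM (log2 0.39, adjusted p = 0.00161). Ruvbl2, an ATPase of chromatin-remodelling complexes, rose by 0.61 (adjusted p = 0.00263), and Pygo2, a PHD-finger adaptor of the beta-catenin complex, by 0.40 (adjusted p = 0.00523).

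Of 14 tested nuclear inhibitors and corepressor enzymes, 4 were higher, 0 lower, and the median was 0.00. DESeq2 also called 4 higher and 0 lower, and 5 genes had an unadjusted p under 0.05. The counts were 2 and 0 with only the 6 libraries compared and without any 1 lenti-NC or lenti-shTCF7L2 library or the first lenti-TCF7L2 library, and 5 and 4 without the second. Without the third lenti-TCF7L2 library they were 3 and 2. Sox17, an HMG-box factor of endothelium and endoderm that can bind beta-catenin, had 29, 23 and 28 counts in lenti-NC and 82, 86 and 95 in lenti-TCF7L2, a clear separation (log2 1.60, SE 0.16, adjusted p = 0.000197). Sox17 and the endothelial sum both rose in lenti-TCF7L2, where the median log2 difference of the endothelial markers was 1.74. Within that group the third library had the highest Sox17 count and the lowest endothelial sum (866 CPM). With the shRNA, Sox17 had 42, 37 and 31 counts, above lenti-NC (log2 0.43, adjusted p = 0.28), while the endothelial sum was below lenti-NC (marker median log2 −0.15). The part of endothelial cells in the Sox17 difference was not tested. Hic1, a zinc-finger repressor, rose by 0.68 (adjusted p = 0.00158), and the deacetylase gene Hdac1 by 0.36 (adjusted p = 0.0346). The Hdac1 call was lost without any 1 of the lenti-NC or lenti-shTCF7L2 libraries or the first lenti-TCF7L2 library (adjusted p 0.0567 to 0.109), and with only the 6 libraries compared (0.111). Tle5, the short Groucho relative listed under its older symbol Aes, was not called (−0.09, adjusted p = 0.603).

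The destruction complex, which marks cytoplasmic beta-catenin for degradation, had 3 of 17 tested genes lower and 0 higher by edgeR and by DESeq2, 4 at an unadjusted p under 0.05, and a median of −0.10. The counts were 7 lower and 1 higher without the third lenti-TCF7L2 library, where 42.7% of all genes were called, and 6 and 0 without the second. Tnks2, a tankyrase that promotes turnover of axin, fell by 0.58 on the log2 scale (adjusted p = 0.00451), and Fbxw11, an F-box protein that recognises phosphorylated beta-catenin, fell by 0.38 (adjusted p = 0.00638). Csnk1a1, the kinase that primes beta-catenin, fell by 0.37 (adjusted p = 0.0439), a call lost in 14 of 22 alternatives. They were each left-out library but the second and the third lenti-TCF7L2 library (adjusted p 0.0568 to 0.132), upper-quartile scaling (0.0505), the 3 limma fits (0.0622 to 0.0773), the replicate block (0.0584), only the 6 libraries compared (0.0959) and the length adjustment (0.082).

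Of 6 tested cadherin-catenin junction genes, which hold the other large pool of beta-catenin, 3 were lower and 1 higher (median −0.32), also by DESeq2. Ctnna1, alpha-E-catenin, fell from a mean of 1330 to 889 CPM (log2 −0.58, adjusted p = 0.000265), and Jup, plakoglobin, from 428 to 302 CPM (log2 −0.50, adjusted p = 0.000747). Cdh5, the endothelial VE-cadherin, rose from 92, 106 and 111 counts to 372, 703 and 227 (log2 1.97, adjusted p = 0.004). The median log2 difference of the 10 endothelial markers was 1.74. Cdh5 is itself 1 of them, so its rise with the endothelial sum is partly built in. With the shRNA, Cdh5 had 122, 134 and 125 counts (log2 0.27, adjusted p = 0.847), above lenti-NC, while that sum was below lenti-NC. The cardiomyocyte sum was lower in the lenti-TCF7L2 libraries, where Ctnna1 and Jup were lower. The part of cell makeup in these differences was not tested.

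Among 10 tested factors that bind Groucho proteins, 4 were higher and 1 lower by edgeR (median 0.25), and 2 and 1 by DESeq2. The counts were 1 and 1 with only the 6 libraries compared, 6 and 3 without the third lenti-TCF7L2 library, 2 and 1 without the first or the second lenti-NC library, and 1 and 1 without the third lenti-NC or the first lenti-TCF7L2 library. Prdm1, a zinc-finger repressor, had 11, 6 and 8 counts in lenti-NC and 24, 50 and 40 in lenti-TCF7L2 (log2 2.06, adjusted p = 0.00588). Foxa2, a forkhead factor known from endoderm, had 16, 20 and 18 against 11, 7 and 8 (log2 −1.16, adjusted p = 0.0077). Msx1, a homeobox repressor, rose by 0.53 (adjusted p = 0.0134), and lost the call without the third lenti-NC library (adjusted p = 0.0526) or the first lenti-TCF7L2 library (adjusted p = 0.0572), and with only the 6 libraries compared (adjusted p = 0.0552).

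In lenti-shTCF7L2 against lenti-NC these lists held few calls by edgeR over all 9 libraries, as did all tested genes (3.64%). edgeR called 0 of 12 coactivators, with 4 at an unadjusted p under 0.05 and 1 called by DESeq2, and 0 of 14 inhibitors and enzymes, with 2 at an unadjusted p under 0.05 and 0 called by DESeq2. With only the 6 libraries compared, where 28.5% of all genes were called, 3 coactivators were higher and 2 lower, and 2 inhibitors and enzymes higher and 3 lower. Without the third lenti-TCF7L2 library (17.4% of all genes) the counts were 2 and 2, and 0 and 1. Without the second, where 646 of all genes were called, 1 coactivator was lower. The highly counted Smarca4 and Bcl9l stood at 0.22 (adjusted p = 0.31) and 0.04 (adjusted p = 0.982), and Tle5 and Ctbp1 at −0.08 (adjusted p = 0.861) and −0.01 (adjusted p = 0.987). Smarca4, the BRG1 ATPase, was called higher in the 6-library fit (adjusted p = 0.00116) and without the third lenti-TCF7L2 library (0.20, adjusted p = 0.0316).

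Jup and Tnks2 fell with the shRNA as well. Jup fell by 0.51 (SE 0.07, adjusted p = 0.00512), the 1 call among 6 junction genes (2 by DESeq2, with only the 6 libraries compared and without the third lenti-TCF7L2 library), and was called under all 22 alternatives. Tnks2 fell by 0.67 (adjusted p = 0.013), the 1 call among 17 destruction-complex genes (1 higher and 2 lower with only the 6 libraries compared), and lost the call without any 1 lenti-NC or lenti-shTCF7L2 library (adjusted p 0.0543 to 0.0737). Both comparisons share the lenti-NC libraries, so a difference in the same direction in each is not 2 separate results. Foxa2 rose to 31, 36 and 36 counts (log2 0.90, adjusted p = 0.046), the 1 call among 10 Groucho-binding factors. That call was lost in 9 of 20 alternatives: without any 1 of those 6 libraries (adjusted p 0.11 to 0.194), with DESeq2 (0.13), with the replicate block (0.122) and with no filter (0.0685). With only the 6 libraries compared, 1 of 9 such factors was higher and 2 lower, and without the third lenti-TCF7L2 library 1 of 10 was higher and 1 lower.

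**Figure D4:**
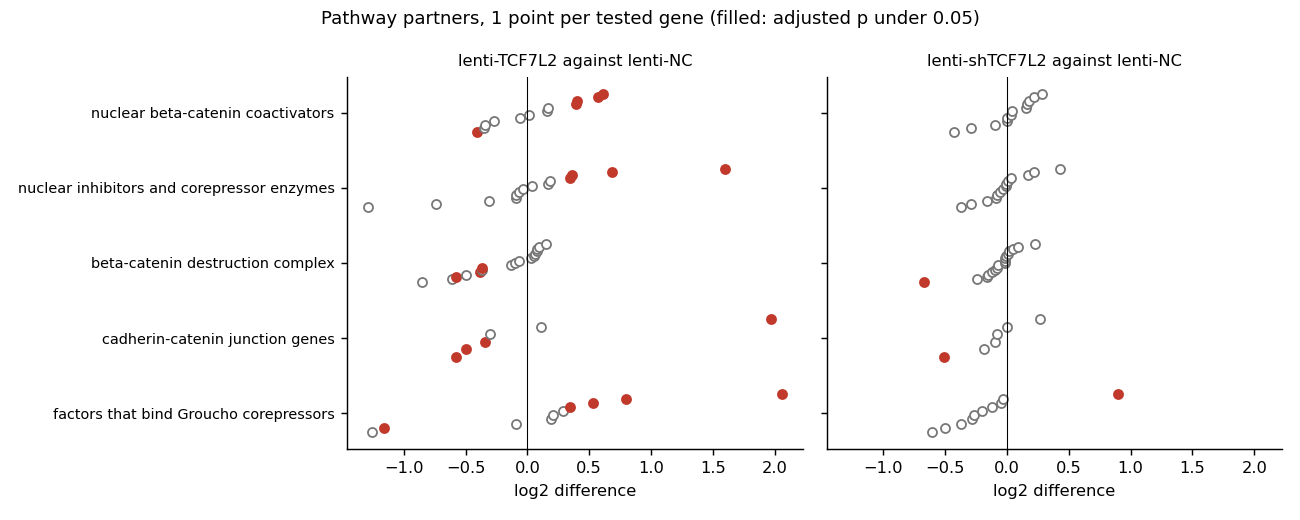
Log2 differences of the tested genes of each list in lenti-TCF7L2 against lenti-NC and in lenti-shTCF7L2 against lenti-NC, each point a gene, with filled points for an adjusted p under 0.05. Filled points are more frequent in the lenti-TCF7L2 comparison, as they are among all tested genes (31.8% against 3.64%).

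Between lenti-TCF7L2 and lenti-shTCF7L2 the lists stood as follows, beside 33.1% of all tested genes called (18.4% higher, 14.7% lower). Of the 12 coactivators 3 were higher and 1 lower, led by Pygo2 (0.40), Ruvbl2 (0.44) and Carm1 (0.25). Of the 14 inhibitors and enzymes 4 were higher and 1 lower, led by Hic1 (0.97), Sox17 (1.17) and Hdac1 (0.51). Fbxw11 (−0.28) and Csnk1a1 (−0.42) were the 2 calls among 17 destruction-complex genes, both lower. Of the 6 junction genes 1 was higher, Cdh5 (1.70), and 2 lower, Ctnna1 (−0.39) and the N-cadherin gene Cdh2 (−0.33). Of the 10 Groucho-binding factors 6 were higher and 1 lower, with Foxa2 at −2.05 (adjusted p = 0.000221), Hhex, a homeobox repressor, at 1.41 (adjusted p = 0.00208) and Msx1 at 0.73 (adjusted p = 0.00265). Calls lost on leaving out a library were those of Carm1 (first or the third lenti-shTCF7L2 library, adjusted p 0.0681 and 0.0655), Csnk1a1 (the same libraries, 0.0581 and 0.0841), Fbxw11 (first lenti-TCF7L2, second or the third lenti-shTCF7L2 library, 0.0524 to 0.0768) and Cdh2 (any lenti-NC or lenti-shTCF7L2 library or the first lenti-TCF7L2 library, 0.0668 to 0.103). With only the 6 libraries compared, where 22.7% of all genes were called, these 4 calls were lost as well (adjusted p 0.0582 to 0.113). In that fit 2 coactivators, 3 inhibitors and enzymes and 3 Groucho-binding factors were called higher, and 0 destruction-complex genes were called. Csnk1a1 was also lost with the length adjustment (0.0669) and Cdh2 in the unfiltered limma fit (0.056). Coactivators were 2 higher and 0 lower without the first or the third lenti-shTCF7L2 library. Groucho-binding factors were 3 higher and 1 lower without the first lenti-TCF7L2 library or any 1 lenti-shTCF7L2 library. All genes called were 2649 to 5405 with a library left out, against 3890 with every library, and list counts from such fits move with that total. Destruction-complex genes were 2 higher and 6 lower without the third lenti-TCF7L2 library (45.6% of all genes called) and 0 and 4 without the second. Destruction-complex counts were 0 and 1 without the first lenti-TCF7L2 library or the first or the second lenti-shTCF7L2 library, and 0 and 0 without the third lenti-shTCF7L2 library.

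The genes whose profile over the 9 libraries was most like that of a member were found by the root mean square difference in log2 CPM, centred on lenti-NC, among 10220 genes (10221 for Lef1) with a mean count of at least 50. For Tcf7l2, whose profile includes any insert reads, they were Pcdh12, an endothelial protocadherin (0.335), Cpxm2, a carboxypeptidase-like gene (0.396), and Mmp12, macrophage elastase (0.404). Within lenti-TCF7L2, Pcdh12 was highest in the second library, as Tcf7l2 was, but Cpxm2 and Mmp12 were highest in the first. With the shRNA their log2 differences were −0.20, −0.10 and 0.01 in the order named, against −0.43 for Tcf7l2. For Lef1 they were Gbp2, a guanylate-binding protein gene (0.155), RT1-S3, an MHC class Ib gene (0.160), and RGD1309534 (0.182). Gbp2 had 329, 273 and 334 counts in lenti-NC, 424, 442 and 500 in lenti-TCF7L2 and 162, 156 and 160 in lenti-shTCF7L2. Its group means had the same order as those of Lef1, as the choice by profile implies. Lef1 itself overlapped between lenti-NC and lenti-TCF7L2. Gbp2 and RT1-S3 belong to families of near-identical copies, between which the authors' counting could divide reads. For Ctnnb1 they were Zfp275 (0.026), Ice2 (0.038) and Nedd4, a ubiquitin ligase gene (0.041). Like Ctnnb1, all 3 had their lowest value in the third lenti-TCF7L2 library, the one that stood apart by gene length. This likeness also follows from the choice and is no separate result.

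**Figure D5:**
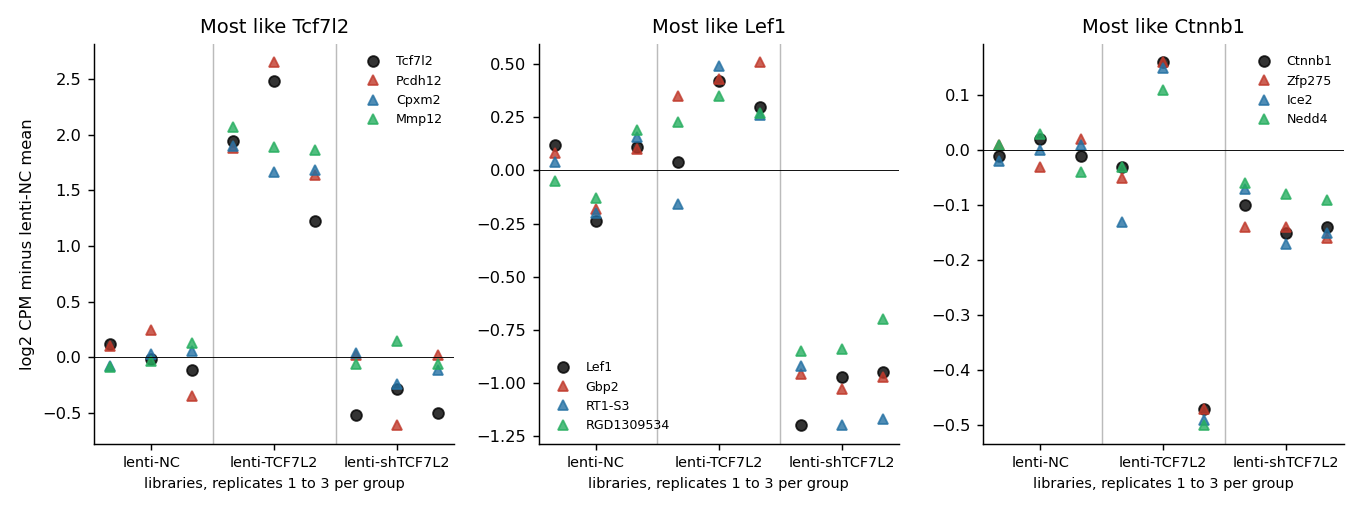
Log2 CPM minus the lenti-NC mean in each of the 9 libraries for Tcf7l2, Lef1 and Ctnnb1 (circles) and for the 3 genes nearest to each (triangles). The Lef1 panel shows all 4 genes lowest in the 3 lenti-shTCF7L2 libraries, and the Ctnnb1 panel shows all 4 lowest in the third lenti-TCF7L2 library (Ctnnb1 at −0.47). The triangles were chosen for their likeness to the circles.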

How the data were processed

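The 9 libraries, 3 in each group, were analysed. The authors deposited 1 table per library with an expected count and an FPKM per gene, per the file headers. The submitters' processing notes name RSEM 1.3.1, HISAT2, Bowtie2, DESeq2 1.4.5 and the rn6 build, with no roles. The tables list genes above 0; a gene missing from a library was set to 0. Libraries held 15085922 to 16478295 expected counts.

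Expected counts were rounded and tested with edgeR 4.0.16 (R 4.3.3): filterByExpr, TMM scaling, and the quasi-likelihood test on all 9 libraries, Benjamini-Hochberg adjusted over 11761 genes, 2846 being set aside. The threshold was an adjusted p of 0.05. The fit was tested on simulated data, with 67 genes changed at each of the smaller sizes. Every simulated gene and group had the same spread, without the unequal lenti-TCF7L2 libraries or the length bias of the third. The rates that follow hold for that setting and not for these data. For lenti-TCF7L2 against lenti-NC (11626 genes), 31.3% were recovered at a log2 change of 0.585 and 92.5% at 1, with 5.13% of calls false. For lenti-shTCF7L2 against lenti-NC (11621 genes) these were 35.8%, 89.6% and 7.45%, and for lenti-TCF7L2 against lenti-shTCF7L2 (11611 genes) 23.9%, 80.6% and 3.62%. All 3 comparisons share 1 estimate of spread per gene, to which the unequal lenti-TCF7L2 libraries contribute. FPKM divides by gene length, so levels were compared between genes only on that scale; the Lef1 model has 1194 bases.

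Named were all members, Axin2, up to 3 called genes of smallest adjusted p in each list and comparison (the 2 of highest count where none was called), and the 3 genes nearest in profile to Tcf7l2, Lef1 and Ctnnb1. Members and lists were chosen with earlier results of these data known. Alternatives were other scalings, filters, DESeq2 1.42.0, limma 3.58.1 on log2(FPKM + 1) or log2(FPKM + 0.1), a replicate block, only the compared libraries, a length adjustment, and each library left out. Promoter windows were read from RefSeq, GRCr8, and matched by gene ID.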

Additional observations from a re-analysis of the deposited data

How the results depend on the processing

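Depth limits Lef1 and Axin2 most, at 9 to 33 counts per library. Of the member results, the calls of Tcf7l2, Tle2 and Tle3 in lenti-TCF7L2 against lenti-NC, and of Tcf7l2, Lef1 and Tle3 against lenti-shTCF7L2, were made in all 22 alternatives. Whether the replicate numbers pair the libraries was not settled. Residuals of the 9 same-numbered pairs correlated at −0.067 to 0.151, 2 of them over 0.1. A library correlated best with its own number in 9 of 18 checks, each with 3 libraries to choose from, which does not exclude pairing. Mean levels and shares stayed within 1 SD in all 156 alternatives run on them, but this could not have come out otherwise for most. Leaving out 1 of 3 libraries cannot move a mean by 1 SD. The rest divided expected counts by gene length, much as FPKM does. Stability of the levels is therefore not shown by them. The causes of the changes below were not tested.

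In lenti-shTCF7L2 against lenti-NC, the number of members called went from 1 to 0 with DESeq2 and with the replicate block, to 4 with only the 6 libraries compared and to 4 with the length adjustment without the third lenti-TCF7L2 library, and to between 0 and 2 with a library left out. All genes called there, 428, became 651 with DESeq2, 244 with the replicate block, 3294 with only the 6 libraries, 915 with the length adjustment, 2624 with that adjustment without the third lenti-TCF7L2 library, and 88 to 2056 with a library left out. For Lef1 the replicate block gave −1.18 (adjusted p = 0.0814); it changed no other member's call. In lenti-TCF7L2 against lenti-NC, all genes called, 3741, became 2321 with only the 6 libraries and 2430 to 5503 with a library left out. Between the 2 TCF7L2 vectors, members called, 3, became 5 with the length adjustment without the third lenti-TCF7L2 library and 3 to 5 with a library left out, and all genes called, 3890, became 5916 and 2649 to 5405.

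Signs turned only for differences that had not passed the test. Against lenti-NC in lenti-TCF7L2, Ctnnb1 was 0.058 with the length adjustment without the third lenti-TCF7L2 library and 0.052 without that library, Tle4 was 0.028 with the length adjustment and 0.037 with it and without that library, and Axin2 was −0.048 without the first lenti-NC library. In lenti-shTCF7L2, Tle1 was −0.0023 and Ctbp1 0.014 without the first lenti-NC library, Axin2 was 0.171 without the second, and Ctbp1 was 0.011 with upper-quartile scaling, 0.024 in the 3 limma fits and 0.0063 without the first lenti-shTCF7L2 library. Between the TCF7L2 vectors, Tcf7l1 was −0.0059 with RLE scaling, −0.0028 with no filter, −0.0061 with DESeq2, −0.015 with library sizes without the 10 top genes and Tcf7l2, −0.00052, −0.00047 and −0.00036 without each lenti-NC library, −0.064 without the second lenti-TCF7L2 library, and −0.006 and −0.028 without the first and second lenti-shTCF7L2 libraries; Ctnnb1 was −0.106 without the second lenti-TCF7L2 library. With a library left out, the ranges of these differences were −0.237 to 0.052 for Ctnnb1 and −0.048 to 0.384 for Axin2 in lenti-TCF7L2, −0.0023 to 0.198 for Tle1, −0.26 to 0.171 for Axin2 and −0.027 to 0.014 for Ctbp1 in lenti-shTCF7L2, and −0.064 to 0.046 for Tcf7l1 and −0.106 to 0.199 for Ctnnb1 between the vectors. Axin2 was absent from the limma fits with a mean FPKM filter of 1.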

Other observations

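Ratios on the FPKM scale put the members side by side within a library. The ratio of beta-catenin transcripts to the summed TCF/LEF transcripts was 3.96 ± 0.275 in lenti-NC (SD, n = 3), 2.29 ± 0.166 in lenti-TCF7L2 and 4.29 ± 0.115 in lenti-shTCF7L2. The summed TCF/LEF level behind these ratios was 34.5 to 39.1 FPKM in lenti-NC, 45.9 to 80.0 in lenti-TCF7L2 and 31.1 to 31.9 in lenti-shTCF7L2. In lenti-TCF7L2 that sum includes any insert reads counted on Tcf7l2. Tle5, the short relative that lacks the repeat domain of the long Groucho proteins, was far more abundant than their sum. The ratio of Tle5 to that sum was 20.3 ± 0.208 in lenti-NC, 14.5 ± 4.26 in lenti-TCF7L2 and 18.5 ± 0.9 in lenti-shTCF7L2. The lenti-TCF7L2 libraries ranged from 10.7 to 19.1 in that ratio. The 19.1 was in the third library, which stood apart by gene length, and the Tle5 model has 1356 bases against 4776 for Tle3. The part of gene length in this ratio was not tested.

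In the order of genes in the RefSeq annotation (GRCr8), Tle2 lies between Tle6 and Tle5 on chromosome 7. Tle6 was not listed in any library. Tle2 rose with lenti-TCF7L2 by 0.57 (adjusted p = 0.00788), while its neighbour Tle5 stood at −0.09 (adjusted p = 0.603); the difference between them was not tested. Tgoln2, which precedes Tcf7l1 on chromosome 4 and was singled out after its values were seen, fell with lenti-shTCF7L2 by 0.79 on the log2 scale (adjusted p = 0.00445), where Tcf7l1 stood at −0.16 (adjusted p = 0.366).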
